A study of Mus musculus with 12 samples.

Results

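The aminoacyl-tRNA synthetases were followed in polysome sequencing of fat-depot cells. Members were taken from a list of 36 genes named by GENCODE M21 symbols, 20 for cytosolic enzymes and 16 for mitochondrial enzymes with the suffix 2, out of 35523 genes in the files. All 36 passed the filter on low counts in every comparison. The cells were the stromal vascular fraction (SVF) of epididymal fat from 12-week-old male Lepob/Lepob mice, which lack leptin and are obese, and they were cultured and differentiated in vitro. All cells received 0.5 mM IBMX, 1 µM dexamethasone and 5 µg/mL insulin, with either 1 µM rosiglitazone (Rosi, a PPARγ agonist) or DMSO (Veh), and all were given 100 µg/mL cycloheximide for the last 5 min. The protocol sets harvest at day 4, whereas the series text gives 3 days of differentiation. Total RNA before the sucrose gradient is called input, and RNA from the pooled heavy fractions is called polysome (at least 3 ribosomes per mRNA by the series text, over 3 by the article); the polysome libraries carry eWAT in their titles.

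Of the 12 deposited libraries, input Veh replicates 2 and 3 held identical values for all 117135 transcripts and were counted as 1, which left 2 libraries of input Veh and 3 each of input Rosi, polysome Veh and polysome Rosi. Each library had between 17.4 M and 24 M estimated reads. Replicates were labelled biological, but whether each came from its own mice or from pooled mice is not given, so p-values measure the spread between these libraries. On the first principal component, with 50.2% of the variance, polysome Veh replicate 1 stood apart from replicates 2 and 3 (-53.1 against -27.2 and -21.4). Macrophage and smooth muscle markers were both abundant in the cultures. In input, 8 macrophage markers summed to 11610 to 18690 CPM (counts scaled to a common library size). The 4 smooth muscle markers summed to 10050 to 11570 CPM there. Of 4 epididymis markers Lcn5 and Defb20 were at 0 in all libraries and Adam28 near 0, but Crisp1 was present, and the 4 summed to 112 to 124 CPM in input Veh, 72.2 to 91.6 CPM in input Rosi, 156 to 256 CPM in polysome Veh and 132 to 159 CPM in polysome Rosi. The part of epididymal RNA in the synthetase values was not tested.

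Each aminoacyl-tRNA synthetase joins an amino acid to its tRNAs, and the charged tRNA is what the ribosome reads during elongation. Separate nuclear genes encode most cytosolic and mitochondrial enzymes, while Gars and Kars are known to serve both compartments, and cytosolic phenylalanyl-tRNA synthetase is built from Farsa and Farsb subunits. Several cytosolic enzymes (Eprs, Iars, Lars, Mars1, Qars, Rars, Kars and Dars) sit in the multisynthetase complex, and many cytosolic synthetase genes are known targets of ATF4, the transcription factor of the amino acid response.

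Because ATF4 and C/EBP proteins bind the element TGATGNAA, promoter windows of 250 bases before to 50 after the RefSeq start (GRCm38.p6) were searched for it on both strands. RefSeq windows matched 27 of the 36 members, and 5 of these held the element, against 1219 of 27025 genes (4.51%) overall. All 5 were cytosolic, Gars and Tars among them, out of 13 cytosolic and 14 mitochondrial members matched. Stretches of these 2 windows are printed 5′ to 3′ on the gene's strand with the element in capitals, which is the reverse complement of the spelling above in each, for the glycyl and threonyl enzymes that reappear in the polysome comparison. A match is a description of letters and not a binding site.
Gars, chr6:55037960-55037989, plus strand: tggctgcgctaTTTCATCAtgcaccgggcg
Tars, chr15:11399659-11399688, minus strand: gggccaggagtcccgTTGCATCAgctggtt

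Levels between genes were compared in TPM, which corrects for transcript length. Cytosolic synthetase mRNAs had a median level of 67.7 TPM in input Veh and mitochondrial ones 8.54 TPM. Sars, the seryl enzyme, had the highest level in input Veh at 330 ± 10.7 TPM (SD, n = 2), followed by Gars at 214 ± 17.7 TPM and Nars, the asparaginyl enzyme, at 198 ± 15.3 TPM. Gars and Nars did not differ beyond their spread. At the other end of the cytosolic list were Iars at 32.3 ± 5.36 TPM and Lars at 33.7 ± 2.15 TPM, whose spreads also overlapped. Mitochondrial levels in input Veh ran from 0.55 TPM for Mars2, annotated with a single transcript of 11294 bases, to 103 ± 25.5 TPM for Lars2. Summed over all its transcripts, Lars2 was the only mitochondrial member above the median of the cytosolic ones. Protein-coding transcripts held only 5.3% of its reads in input Veh, as described later. The order changed in the polysome libraries, where Nars (179 TPM in Veh) and Gars (186 TPM in Rosi) had the highest mean levels and Vars the lowest of the cytosolic members (15.2 TPM in Veh and 17.2 TPM in Rosi). The TPM of the 20 cytosolic mRNAs summed to 1786 and 1997 in the input Veh libraries and 1757 to 1932 in input Rosi, against 1296 to 1331 in polysome Veh and 1276 to 1326 in polysome Rosi. Cytosolic sums in input and polysome thus did not overlap, whereas the mitochondrial sums did, at 208 to 229, 183 to 248, 200 to 239 and 233 to 259 in the same 4 groups. Lars2 alone made up a large part of the mitochondrial sums. Its means were 103, 83.8, 99.3 and 120 TPM in these groups, against mean sums of 219, 212, 215 and 245.

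**Figure D1:**
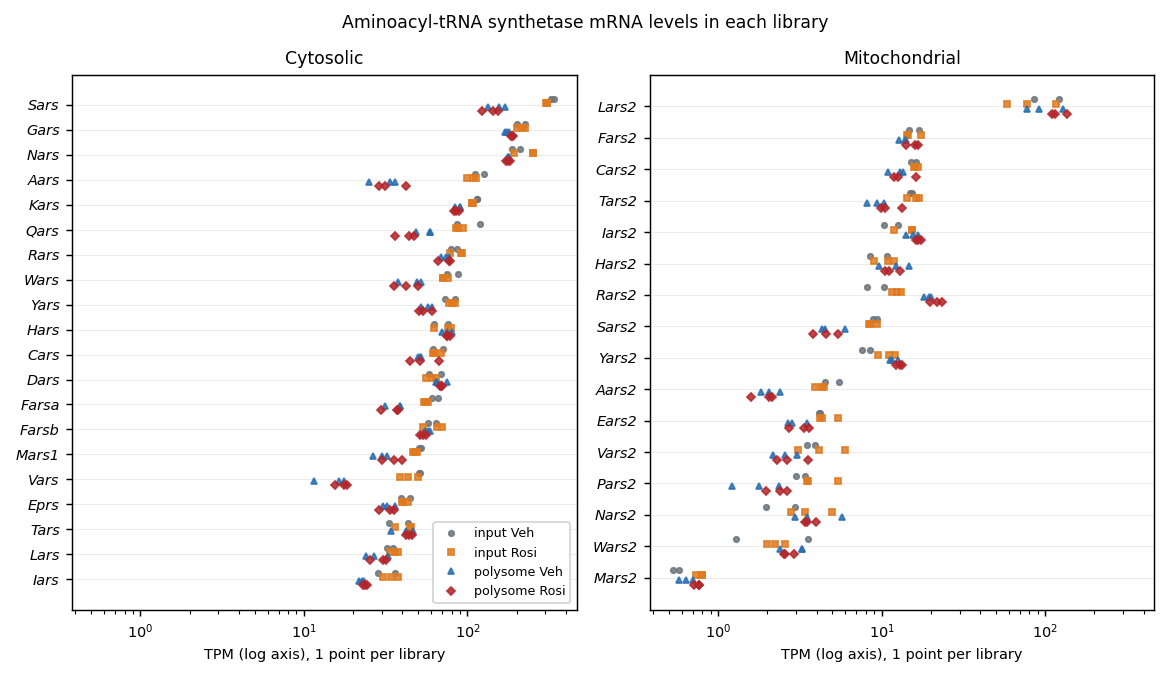
TPM on a log axis of each synthetase mRNA in each library, 1 point per library, with cytosolic genes on the left and mitochondrial genes on the right, ordered by the input Veh mean. Polysome points of Aars and Vars lie to the left of all their input points. Summed over all its transcripts, Lars2 stands far above the other mitochondrial genes.

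To ask how much of each mRNA was in heavy polysomes relative to total RNA, polysome and input libraries were compared with edgeR's quasi-likelihood test over 14042 genes. Called means here that the adjusted p lay under 0.05 and the absolute log2 difference over 0.2. In Veh, 15 of the 20 cytosolic synthetase mRNAs were called lower in polysomes, none higher, and 5 were not called. Of all genes tested, 24.6% were called lower and 24.7% higher. The median log2 difference was -0.62 for cytosolic synthetases and 0.02 for all genes. These were bulk samples, so each value is an average over the cell types in the cultures. Counts were scaled within each library, so a value gives the share of the polysome or input pool and not an absolute amount.

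The alanyl and valyl enzymes had the largest estimates in Veh. Aars (chr8:111033144-111057664, GRCm38) was at 447 and 449 CPM in the input Veh libraries and at 116, 151 and 152 CPM in polysome Veh. No polysome library reached a level near either input library, and Aars was 3.21-fold lower in polysomes (log2 -1.68 ± 0.11 SE, adjusted p = 1.39e-07). Vars (chr17:35000987-35016322) was at 144 and 150 CPM in input and at 36.4, 46.8 and 48.7 CPM in polysomes. It was 3.35-fold lower (log2 -1.74 ± 0.14, adjusted p = 5.04e-07), again with no overlap.

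The methionyl, seryl and glutaminyl enzymes followed. Mars1 (chr10:127296221-127311786) was at 113 and 116 CPM in input and at 44.7, 51.1 and 55.4 CPM in polysomes (log2 -1.18 ± 0.10, adjusted p = 7.88e-07). Sars (chr3:108424865-108445209) was at 427 and 458 CPM in input and at 199, 218 and 217 CPM in polysomes (log2 -1.07 ± 0.10, adjusted p = 9.69e-07). Qars (chr9:108507706-108515941) was at 138 and 141 CPM in input and at 69.8, 74.2 and 67.5 CPM in polysomes (log2 -0.99 ± 0.09, adjusted p = 1.54e-06). The groups were apart for all 3 genes. The share of all genes whose groups do not overlap is not given here, and genes were named largely by smallest p. Non-overlap in any comparison therefore describes the values and adds no support to a call. The tyrosyl enzyme Yars had 142 and 141 CPM against 79.3, 87.5 and 85.5 CPM (log2 -0.75 ± 0.09, adjusted p = 1.49e-05). Farsa, one subunit of the phenylalanyl enzyme, had 83.9 and 83.4 CPM against 40.7, 48.7 and 46.7 CPM (log2 -0.88 ± 0.11, adjusted p = 1.65e-05). Its partner subunit Farsb was at 78.4 and 76.7 CPM in input and at 68.6, 63.9 and 64.8 CPM in polysomes, a smaller difference that was not called (log2 -0.24 ± 0.10, adjusted p = 0.0575).

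Among the other cytosolic members called lower in Veh, log2 differences ran from -0.93 for Wars to -0.38 for Gars. Not called were Farsb, Nars (log2 -0.23), Rars (-0.26), Dars (0.02) and Hars (0.04). In the multisynthetase complex 6 of 8 members were called lower (median -0.52), and outside it 9 of 12 (median -0.70). Genes were also listed as class I or class II, classes named for the fold of the catalytic domain. Eprs was listed in class I only, and the subunit Farsb in class II. By that list, 9 of 10 cytosolic class I genes and 6 of 10 cytosolic class II genes were called lower, with medians of -0.72 and -0.40.

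Of the 16 mitochondrial synthetase mRNAs, 6 were called lower in Veh and 3 higher, with a median of -0.20. The shares of all genes were 24.6% lower and 24.7% higher. Aars2, the mitochondrial alanyl enzyme, was at 11.6 and 15.4 CPM in input and at 4.79, 5.23 and 5.75 CPM in polysomes. It was 2.57-fold lower (log2 -1.36 ± 0.17, adjusted p = 1.33e-05), and the groups did not overlap. Sars2, Tars2, Vars2, Pars2 and Cars2 were also called lower, at -0.99, -0.83, -0.80, -0.76 and -0.31. Rars2 (chr4:34614957-34660167), the mitochondrial arginyl enzyme, was at 13.7 and 11.6 CPM in input and at 26.4, 25.4 and 21.9 CPM in polysomes. Every polysome library was above both input libraries, and Rars2 was 1.94-fold higher (log2 0.96 ± 0.14, adjusted p = 7.48e-05). Yars2 (log2 0.44 ± 0.13, adjusted p = 0.0127) and Iars2 (0.34 ± 0.12, adjusted p = 0.0309) were called higher as well.

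**Figure D2:**
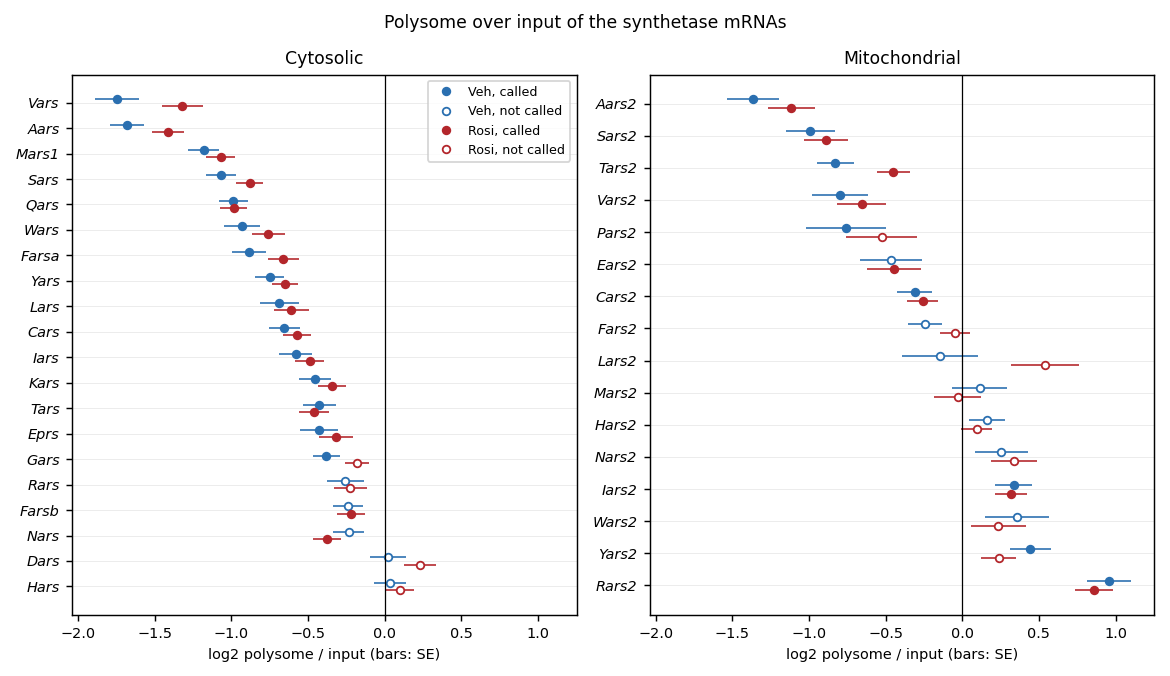
Log2 difference between polysome and input for each synthetase mRNA in Veh (blue) and Rosi (red), with standard errors as bars, filled points for called genes and open points for the others. Vars and Aars lie farthest to the left among cytosolic genes, no cytosolic gene is called to the right of 0, and Rars2 lies farthest to the right among mitochondrial genes.

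The same comparison in the Rosi cells set other libraries against each other. It came from the same fit of all 4 groups, so the 2 tests share an estimate of spread and are not independent. There 16 of the 20 cytosolic members were called lower, none higher, and the median was -0.53 against 0.00 for all genes, with 26% of all genes called lower and 29.1% higher. Mitochondrial members split into 6 lower, 2 higher and 8 not called, with a median of -0.04. Aars was at 392, 352 and 369 CPM in input Rosi and at 145, 140 and 133 CPM in polysome Rosi. It was 2.67-fold lower (log2 -1.42 ± 0.10, adjusted p = 2.78e-07), with every polysome library below every input library.

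Vars was at 144, 104 and 111 CPM in input and at 46.8, 51.5 and 45.5 CPM in polysomes (log2 -1.32 ± 0.13, adjusted p = 1.52e-06). Qars was at 121, 113 and 112 CPM in input and at 60.1, 57.3 and 57.0 CPM in polysomes (log2 -0.99 ± 0.09, adjusted p = 5.51e-07). Mars1 was at 100.3, 99.1 and 98.2 CPM in input and at 45.2, 48.5 and 48.2 CPM in polysomes (log2 -1.07 ± 0.09, adjusted p = 5.94e-07). These 3 enzymes, for valine, glutamine and methionine, had no overlap between input and polysome, although input Vars was higher in Rosi replicate 1 than in replicates 2 and 3. Sars was at 395, 365 and 359 CPM against 200.5, 218 and 190 CPM (log2 -0.88 ± 0.09, adjusted p = 1.44e-06). Yars was at 125, 117 and 127 CPM against 78.5, 80.1 and 76.3 CPM (log2 -0.65 ± 0.09, adjusted p = 1.49e-05). The tryptophanyl enzyme Wars, known for its induction by interferon, was at 148, 138 and 144 CPM against 93.2, 85.2 and 75.1 CPM (log2 -0.76 ± 0.11, adjusted p = 3.18e-05). Again the groups were separate in each. Aars2 was at 11.2, 9.68 and 10.6 CPM in input and at 5.18, 5.16 and 4.16 CPM in polysomes, 2.16-fold lower (log2 -1.11 ± 0.15, adjusted p = 2.42e-05). Rars2 was at 14.98, 15.7 and 13.5 CPM in input and at 24.7, 24.7 and 30.6 CPM in polysomes, 1.81-fold higher (log2 0.86 ± 0.12, adjusted p = 3.38e-05), so the alanyl and arginyl mitochondrial mRNAs again lay on opposite sides.

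Counted over both treatments, 19 members were called lower in Veh and in Rosi, and 20.8% of all genes were. These were 14 cytosolic members (Aars, Cars, Eprs, Farsa, Iars, Kars, Lars, Mars1, Qars, Sars, Tars, Vars, Wars and Yars) and 5 mitochondrial ones (Aars2, Cars2, Sars2, Tars2 and Vars2). Not all of these held when transcript length was taken into account. Tars and Lars lost their calls in both treatments with length-scaled counts (TPM multiplied by the mean effective length of the gene over libraries) and with limma on log2(TPM + 1). Cars, Cars2 and Vars2 each lost theirs in 3 of these 4 fits. Tars turned, from -0.43 to 0.01 and 0.09 in Veh and from -0.46 to 0.09 and 0.08 in Rosi, and its mean level was 38.3 TPM in input and 40.7 TPM in polysomes of Veh, and 41.9 and 44.1 TPM in Rosi. Lars stayed lower at -0.35 and -0.28 in Veh and -0.27 and -0.29 in Rosi. Iars2 and Rars2 were called higher in both, and 21.5% of all genes were. In Rosi, Iars2 lost its call with length-scaled counts (log2 0.25) and with limma (0.23). Gars and Pars2 were called lower in Veh alone and Farsb, Nars and Ears2 in Rosi alone. The test of the difference between treatments, described later, called none of them. That test asked for an absolute log2 difference over 1 and called 0 of 14042 genes. It therefore cannot decide whether these members differ between treatments.

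Polysome and input libraries also differed in base composition. Weighted by reads, transcript GC content was 49.3 to 50.2% in polysome libraries and 51.3 to 51.6% in input libraries, with no overlap. Across 14036 genes with a sequence, which share the same 11 libraries and are not independent replicates, the polysome over input difference had a Spearman correlation with GC content of -0.643 in Veh and -0.664 in Rosi. The same correlation was -0.856 and -0.83 over the 20 cytosolic synthetases and -0.835 and -0.832 over the 16 mitochondrial ones. Vars, at the bottom of the cytosolic list in Veh, had the highest GC content of it (61.6%), and Dars, which was not called lower, the lowest (41.3%). The median GC content was 50.8% for cytosolic members, 53.9% for mitochondrial members and 50.5% for all genes tested.

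Set against all genes of the same GC decile, cytosolic members still lay low. All 20 were below the median of their decile in Veh (median log2 difference from it -0.67), and 19 of 20 were in Rosi (-0.60). Of the mitochondrial members 9 of 16 were below it in each treatment, with median differences of -0.10 and -0.03. When each library's trend with GC content was removed by a smoothed offset, an alternative chosen after seeing the data, the all-gene correlation was -0.0165 in Veh and -0.015 in Rosi. In that fit 19 cytosolic members were called lower in Veh and 18 in Rosi, against 19.5% and 21.5% of all genes called lower and 19.5% and 21.7% called higher. Hars was called in neither, and Gars in Veh only. Aars stood at -1.20 and -1.01 and Vars at -1.17 and -0.84. Dars, the aspartyl enzyme, went from 0.02 to -0.51 in Veh and from 0.23 to -0.54 in Rosi, and was then called lower in both. The calls lost in that fit were all mitochondrial. Cars2 turned from -0.31 to 0.15 in Veh and from -0.26 to 0.13 in Rosi, Vars2 and Iars2 lost their calls in both treatments, as did Pars2 in Veh and Tars2 and Ears2 in Rosi. Aars2 and Sars2 stayed lower and Rars2 stayed higher in both, while Mars2 became lower in both, Yars2 became higher in Rosi also, and Fars2 and Lars2 became higher in Rosi.

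**Figure D3:**
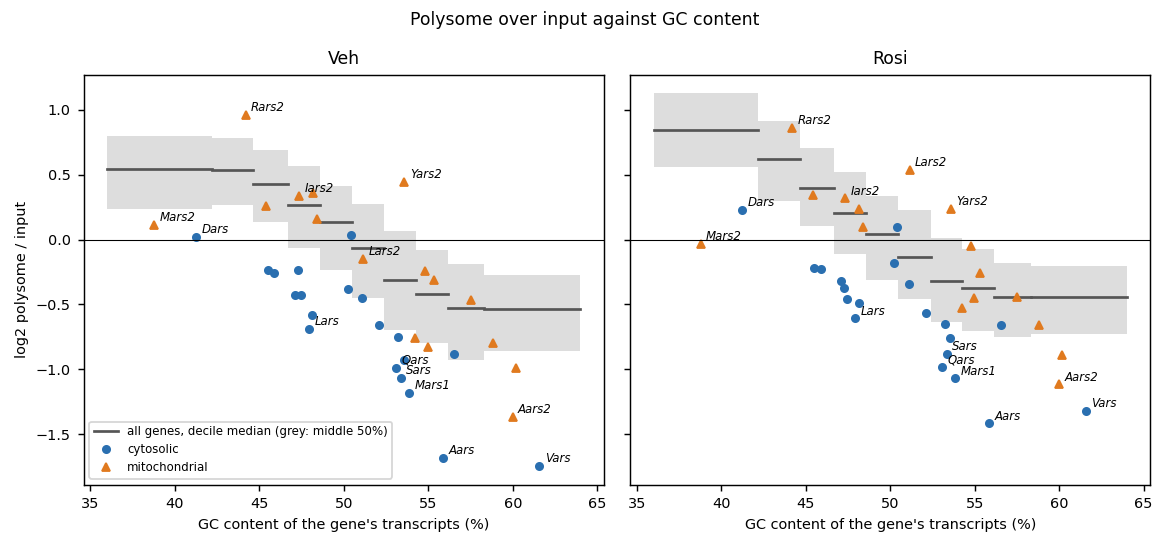
Log2 difference between polysome and input against the GC content of the gene's transcripts (weighted by their TPM), in Veh on the left and Rosi on the right. Grey bars give the median and the middle 50% of all genes in each GC decile, and nearly all blue cytosolic points lie below the median of their decile, with Aars and Vars lowest.

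A gene total can hide the transcripts behind it. Protein-coding transcripts held the smallest share of input Veh reads in Lars2 (5.31%), Qars (36.4%), Wars2 (56.5%), Cars2 (73.6%), Yars2 (78.2%), Lars (80.9%), Ears2 (83.6%) and Farsb (88.8%), and 92.6% or more in the others. Lars2, the mitochondrial leucyl enzyme, was the extreme case. Transcript Lars2-209, annotated as a target of nonsense-mediated decay, took 94.7 ± 1.16% of its reads in input Veh, 88.3 ± 1.69% in input Rosi, 93.6 ± 1.84% in polysome Veh and 95.9 ± 1.81% in polysome Rosi (SD over 2, 3, 3 and 3 libraries). The full-length coding transcript Lars2-201 took 5.29 ± 1.13%, 11.7 ± 1.67%, 6.41 ± 1.84% and 4.09 ± 1.81%. The 2 differ at one splice junction (chr9, plus strand, GRCm38), where Lars2-209 uses a later exon end at 123432005 in place of 123432001 and a later acceptor at 123436234 in place of 123436117. Both junctions are printed 5′ to 3′ with capitals from the base at which Lars2-201 leaves the shared exon.
Lars2-201: agtggatctgctgagTTTACAGGTATGACC
Lars2-209: gatctgctgagGTTGCGCTACTGGGGCACA

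Summed over all transcripts, Lars2 was at 249 and 385 CPM in input Veh, 229, 164 and 314 CPM in input Rosi, 276, 370 and 214 CPM in polysome Veh and 311, 390 and 325 CPM in polysome Rosi. Libraries of the same group differed widely, and the 4 groups overlapped in part. On protein-coding transcripts alone it was at 15.2 and 17.3, at 31.3, 17.6 and 33.7, at 15.7, 18.8 and 18.2, and at 10.6, 10.7 and 20.0 CPM in the same groups. The Rosi difference between polysome and input was 0.54 ± 0.22 with all transcripts (adjusted p = 0.0517) and -0.99 with coding transcripts (adjusted p = 0.0032), so its direction depended on which transcripts were summed. In the last exon of Lars2 (chr9:123461499-123462666, 1168 bases), bases 294 to 691 aligned to 18 other places on 12 chromosomes at 82.2 to 98.8% identity over 83 to 244 bases. How reads shared with such places were divided was not tested.

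Qars reads were also spread over many annotated transcripts. The coding share was 36.4% in input Veh and 22.0% in polysome Veh, and on coding transcripts Qars was at 33.5 and 68.3 CPM in input Veh against 19.1, 14.9 and 12.5 CPM in polysome Veh. The input libraries lay far apart on coding transcripts and close together in the gene total, and the polysome difference was larger on coding transcripts (log2 -1.71, adjusted p = 0.00389). The coding shares of single libraries overlapped between fractions, at 24.2 to 48.5% and 18.6 to 27.3% in Veh and 28.3 to 42.5% and 8.38 to 43.4% in Rosi, and decay-annotated transcripts held 51.35% of Qars reads in input Veh and 51.33% in polysome Veh. In Lars, the cytosolic leucyl enzyme, the decay-annotated transcript Lars-209 made up 18.3 ± 1.82% (input Veh) and 19.8 ± 5.67% (input Rosi) of the total, against 39.3 ± 4.09% in polysome Veh and 39.3 ± 4.72% in polysome Rosi. On coding transcripts alone Lars was lower in polysomes by -1.13 in Veh and -1.03 in Rosi, against -0.69 and -0.61 with all transcripts. For Farsb, transcript Farsb-204 of the same class made up 11.0 ± 2.03% (Veh) and 6.41 ± 2.57% (Rosi) of reads in input and 23.6 ± 8.20% and 28.2 ± 8.76% in polysomes. Its coding reads gave -0.45 (adjusted p = 0.00848) in Veh and -0.59 (adjusted p = 0.000508) in Rosi, both called lower.

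**Figure D4:**
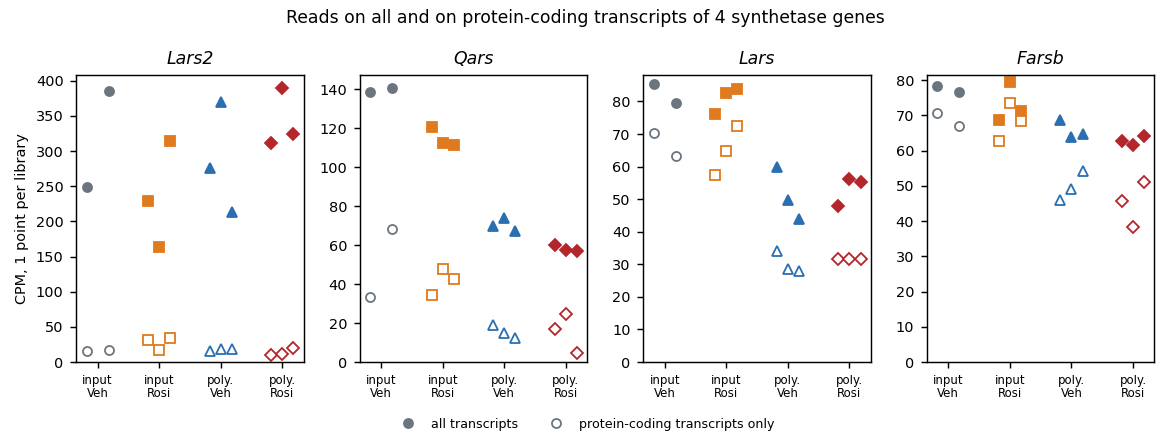
CPM of Lars2, Qars, Lars and Farsb in each library, 1 point per library, with filled points for all transcripts and open points for protein-coding transcripts only. Open points of Lars2 lie near the bottom of its panel in all groups, and those of Lars fall further from input to polysome than the filled points do.

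Kars, the lysyl enzyme, has coding transcripts that differ by an exon near their 5′ end, and in human its alternative splicing makes the cytosolic and the mitochondrial enzyme. Kars-201 took 82.1 ± 4.54% of Kars reads in input Veh, 75.2 ± 3.51% in input Rosi, 68.6 ± 2.08% in polysome Veh and 67.4 ± 5.31% in polysome Rosi. Kars-202 took 15.2 ± 4.66%, 22.9 ± 4.19%, 28.2 ± 2.14% and 28.4 ± 4.68%, so it had a larger mean share in polysomes than in input, with a spread in Rosi about as large as that difference. Shares of transcripts are estimates by Salmon and were not tested. The junctions that tell them apart (chr8, minus strand, GRCm38) join exon 112011210-112011323 or exon 112008207-112008386 to the same exon at 112005632-112005788, and capitals mark the last bases of the exon that differs.
Kars-201: GAAACTAAGCAAGAAtgagctgaagaggcg
Kars-202: TTCTGATAGAAGAAGtgagctgaagaggcg

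The effect of Rosi on total RNA was compared in input libraries, with CPM here scaled over the 5 input libraries of that fit. No synthetase was called, and 1.34% of all 13603 genes tested were. At an unadjusted p under 0.05 there were 7 members, 5 lower and 2 higher, and 17% of all genes met that limit. DESeq2 called 0 members. Wars was at 171 and 160 CPM in Veh and at 142, 137 and 143 CPM in Rosi. The groups did not overlap, but the difference did not pass (log2 -0.23 ± 0.09, adjusted p = 0.198). Farsa was at 79.2 and 77.9 CPM in Veh and at 70.4, 65.9 and 64.8 CPM in Rosi (log2 -0.23 ± 0.09, adjusted p = 0.225). Aars was at 422 and 419 CPM in Veh and at 378, 350 and 367 CPM in Rosi (log2 -0.20 ± 0.08, adjusted p = 0.228). Qars and Sars were the other lower ones (-0.21 and -0.18), and Yars2 (0.37) and Mars2 (0.44) the higher ones. The median over members was -0.03, against 0.01 for all genes. Over the 36 members the Rosi difference had a Spearman correlation with GC content of -0.553. Over all genes that correlation was 0.00676, but the relation there was not monotone, with a median Rosi difference of -0.21 in the lowest GC decile, 0.11 in the fourth and the fifth, and -0.06 in the top 2.

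Without input Rosi replicate 1, 3 members were called, namely Vars at -0.38, Nars at 0.27 and Iars2 at 0.31. The share of all genes called without that library is not given here, so no more is read from this count. Adipocyte markers moved strongly in the same libraries, where 5 of 6 were called higher in Rosi and their summed level was 672 to 761 CPM against 90.0 and 93.7 CPM in Veh. Macrophage markers summed to 16290 and 18690 CPM in input Veh and 11610 to 13680 CPM in input Rosi. The part of these cell types in the synthetase values was not tested. Between treatments, fewer cells of a type and less RNA per cell cannot be told apart in bulk samples.

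Polysome libraries gave no call either, with CPM scaled over the 6 polysome libraries and 0.655% of all 13436 genes called. At an unadjusted p under 0.05 there was 1 member, Qars, and 4.73% of all genes. DESeq2 called 0 members. Qars was at 72.3, 76.7 and 69.5 CPM in polysome Veh and at 61.2, 58.7 and 58.9 CPM in polysome Rosi, with no overlap (log2 -0.29 ± 0.10, adjusted p = 0.703). On coding transcripts that difference was -0.01. Tars2, the mitochondrial threonyl enzyme, was at 14, 14.8 and 15.6 CPM in Veh and at 18.7, 16.3 and 16.6 CPM in Rosi (log2 0.22 ± 0.13, adjusted p = 1). Lars2 was at 286, 383 and 220 CPM in Veh and at 317, 400 and 336 CPM in Rosi, with overlap (log2 0.25 ± 0.17, adjusted p = 1). Adipocyte markers summed to 134 to 180 CPM in polysome Veh and 1266 to 1532 CPM in polysome Rosi.

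**Figure D5:**
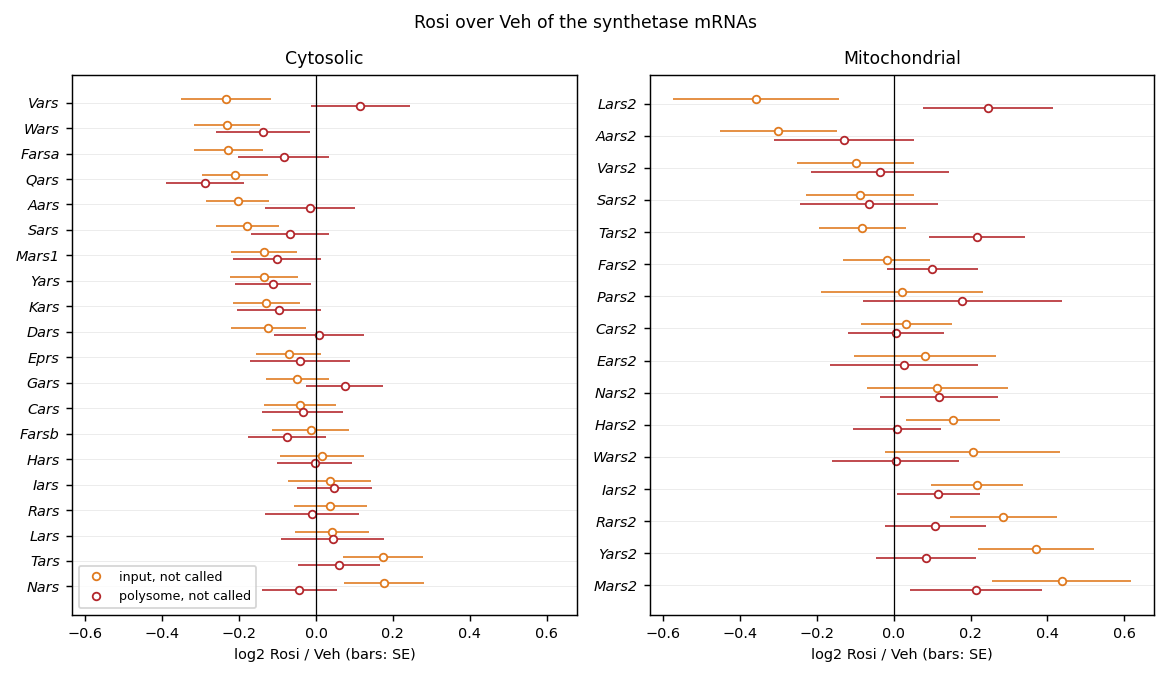
Log2 difference between Rosi and Veh for each synthetase mRNA in input (orange) and polysome (red) libraries, with standard errors as bars, and open points because no gene was called. Points lie between -0.36 for Lars2 and 0.44 for Mars2, both in input.

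Whether Rosi changed the polysome share of an mRNA beyond its total level was asked with the interaction of fraction and treatment, called here translation efficiency, at an absolute log2 difference over 1. No synthetase and 0% of all genes were called. At an unadjusted p under 0.05 there were 2 members, Tars2 and Vars, and 6.84% of all genes met that limit. DESeq2 called 0 members and 1 gene of all. This comparison shares its libraries with the 4 above, so the values are given side by side. Tars2 was at -0.83 in Veh and -0.45 in Rosi (difference 0.38 ± 0.16, adjusted p = 0.719). Vars was at -1.74 and -1.32 (0.42 ± 0.20, adjusted p = 0.719). Lars2 was at -0.15 and 0.54 (0.69 ± 0.33, adjusted p = 0.726), with a value of the opposite sign on coding transcripts. Aars had 0.27 ± 0.15, Gars 0.20 ± 0.12 and Pars2 0.23 ± 0.35. The median was 0.10 for members and 0.06 for all genes.

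Partner genes of the synthetases were read from lists on the same fits. Of the scaffold proteins of the multisynthetase complex, Eef1e1 was called higher in polysomes (0.77 ± 0.14 in Veh and 1.00 ± 0.12 in Rosi), Aimp2 lower (-0.73 ± 0.11 and -0.39 ± 0.10), and Aimp1 was not called in either. Among factors that bring charged tRNA to the ribosome, 5 of 6 were called lower in both treatments, including Eef1g (-0.96 and -1.03), Tufm (-1.01 and -0.69) and Eef1a1 (-0.45 and -0.58), and Tsfm was not called. Of all genes 20.8% were called lower in both treatments and 21.5% higher. Of the 4 genes for clearing mischarged tRNA, Dtd1, Dtd2 and Prorsd1 were called higher in both and Aarsd1 lower (-0.77 and -0.54).

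Mitochondria make glutaminyl-tRNA by a detour in which Ears2 charges the tRNA with glutamate and an amidotransferase of Qrsl1, Gatb and Gatc converts it. Gatc was the only gene of the non-marker lists called between Rosi and Veh. It was at 15.7 and 14.4 CPM in input Veh and at 24.4, 25.7 and 26.4 CPM in input Rosi. Every Rosi library was above both Veh libraries (log2 0.76 ± 0.12, adjusted p = 0.00524), but the call was lost without input Veh replicate 2. Gatb and Qrsl1 were not called there (-0.16 and 0.10). Ears2 was at 0.08 in the same comparison.

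Of 16 genes of the ATF4 programme, 11 were called lower and 3 higher in polysome Veh, and 10 lower and 3 higher in polysome Rosi, against 24.6% of all genes lower and 24.7% higher in Veh and 26% and 29.1% in Rosi. The lower ones included the serine and proline pathway enzymes Shmt2 (-1.60 and -1.22), Phgdh (-1.38 and -1.11) and Aldh18a1 (-1.45 and -1.27). Polysome over input values of these genes and of the partner genes above are from the fit without correction for GC content. Atf4 itself (0.41 and 0.29), Ddit3 (0.94 and 0.65) and the cystine transporter Slc7a11 (0.68 and 0.93) were the higher ones in both. Of the 8 interferon-response genes 7 were tested, with 3 lower in Veh, and 4 lower and 1 higher in Rosi, to be read against the same shares. Some members share exonic bases with a gene on the other strand, and whether reads were counted by strand is not given in the sources used here. These were Iars2 with Rab3gap2 (2034 bases), Fars2 with Nrn1 (501) and Lyrm4 (115), Cars2 with Naxd (422), Hars with Hars2 (195), Ears2 with Ubfd1 (89), Mars1 with Ddit3 (68) and Yars with C77080 (30), so their reads cannot be told apart there.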

How the data were processed

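Libraries were made from poly(A) RNA with an NEBNext Ultra kit and paired-end reads. The authors quantified transcripts with Salmon against mm10, and the deposited files hold estimated counts, TPM and effective lengths per transcript. The index and its annotation, and strand settings, are not given in the sources used here. Transcripts were matched to GENCODE M21 (115973 of 117135) and the deposited estimated counts were added up per gene, then rounded to whole numbers. The deposited TPM values were summed to genes for levels between genes.

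Rosi was compared with Veh within each fraction, and polysome with input and the interaction in 1 fit of all 4 groups, with edgeR 4.0.16 (filterByExpr, TMM, quasi-likelihood F test, two-sided, Benjamini-Hochberg over all genes tested) in R 4.3.3. Standard errors are the absolute log2 difference over the square root of F. Fraction CPM values use scaling over 11 libraries, Rosi comparisons their own 2 groups. DESeq2 1.42.0 and limma 3.58.1 (log2(TPM + 1), TPM of at least 1 in 2 libraries) were alternatives. Scripts were tested on simulated data. Full statistics go to at most 8 called members of smallest p in a comparison, or to 3 where none was called, and Rars2, Farsb, Lars2, Qars, Lars, Kars, Dars, Gatc and a few further partner genes were described after their values were seen. Members and lists were chosen with earlier results of these data known.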

Additional observations from a re-analysis of the deposited data

How the results depend on the processing

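In input, Rosi over Veh gave 0 synthetases by RLE or upper quartile factors, DESeq2, a stricter filter, coding transcripts, length-scaled counts, limma, GC-corrected offsets or 1 fit of all groups, and 1 without a count filter (Lars2), 1 with the replicate block (Lars2, -0.62) and 1 with all 12 libraries as deposited (Qars). Leaving out single libraries gave 0 to 3. In polysomes and for translation efficiency all alternatives gave 0, including leave-one-out (0 to 0). Called members in polysome over input were 21 to 24 in Veh and 20 to 23 in Rosi on leaving out single libraries. They were 5 in Veh and 4 in Rosi at an absolute log2 difference over 1, which by construction admits only larger changes. Under the other alternatives they were 19 (limma) to 30 (all 12 libraries) in Veh and 19 (limma and length-scaled counts) to 27 (fit of the 2 groups compared) in Rosi. Shares of all genes called are given above only for the main fits and, for polysome over input, the GC-corrected offsets. Counts of members under the other settings therefore cannot be set against all genes. For Lars2, coding transcripts reversed Rosi over Veh in polysomes (-0.36) and translation efficiency (-1.12), and the cause was not tested.

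Whether replicate numbers pair the libraries is not known. Over 15 pairs with the same number, correlations of deviations from group means ran from -0.233 to 0.114, and 1 was over 0.1. For input with polysome of the same treatment they were 0.0841 and 0.114 in Veh and -0.0631, -0.0265 and -0.0718 in Rosi. Deviations within a group of 2 or 3 libraries sum to 0, so these correlations cannot show that pairing is absent. With the replicate block the called counts were 1, 0, 22, 21 and 0 for Rosi over Veh in input and polysome, polysome over input in Veh and Rosi, and translation efficiency. The limits are the 2 distinct input Veh libraries, mitochondrial members near 5 CPM (Mars2, Pars2, Wars2), transcript shares that rest on estimates, and a polysome over input difference that follows GC content over all genes. In polysomes Aars2, Ears2 and Sars2 were also that low, with group means from 4.83 to 5.93 CPM.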
